A study of Aspergillus nidulans with 2 samples.

Results

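Septins, actin and kinesins are parts of the cytoskeleton of Aspergillus nidulans, a filamentous fungus also named Emericella nidulans. Septins are GTP-binding proteins that assemble into filaments and rings at the cortex and at septa, actin supports polarised secretion at the hyphal tip and the contractile ring of the septum, and kinesins carry cargo along microtubules. The genes described here are the septin genes aspB (ANIA_06688) and aspC (ANIA_08182), the actin gene act1 (ANIA_06542) and the kinesin gene uncA (ANIA_07547). They were found by their symbols in the platform annotation and make up 4 of the 2064 genes it names. Of 3533 probes on the array, 6 were assigned to them: 1 to aspB, 1 to uncA, 2 to aspC and 2 to act1. A value on both arrays was present for 5 of the 6, and 1 aspC probe was read on the flip array alone.

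The series compared mycelia exposed to menadione, a quinone that produces superoxide by redox cycling, with untreated mycelia. Cultures of strain FGSC 26 were grown for 18 h at 37 °C and moved to fresh minimal-nitrate medium with 0.8 mM menadione (as its sodium bisulfite compound) or without it, and both were harvested after 6 h. Both RNAs were hybridised together to each 2-colour cDNA array, with menadione RNA in Cy5 on the first array (flip) and in Cy3 on the second (flop). The 2 arrays form 1 group, and nothing in the labels says whether separate cultures supplied the RNA, so the p-values take in the spread between these 2 arrays alone, which may be technical.

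All values are log ratios of the 2 channels, read as log2. Neither the base nor the direction of the ratio is stated. Both samples list menadione RNA as channel 1, so a value below 0 is read here as lower with menadione. This direction is an assumption, and the opposite one would exchange lower and higher throughout. The columns correlated at a Pearson r of 0.844 across 2265 probes with both values, and that agreement does not show which way they run. The median of the 2-array means of these probes was 0.04. Intensities were not used here, so the signal behind each ratio is unknown, and the number of arrays limits the precision. In whole mycelium, a smaller share of cells with a transcript and less of it per cell cannot be told apart.

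All 5 probes of the 4 genes with both values were below 0 on both arrays, as were 39.4% of all probes. Of the 5, 2 were lower with menadione past an adjusted p of 0.05 by limma with Benjamini-Hochberg adjustment over all 2265 probes: the aspC probe 2560 and the act1 probe 3344. Over all probes 24.6% passed, 12.4% as lower. The same 2 probes were at least 2-fold below 0 on both arrays, where 9.36% of all probes were. The median of the 5 means was -1.32. For both aspC and act1, the gene's other probe gave a different value.

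**Figure D1:**
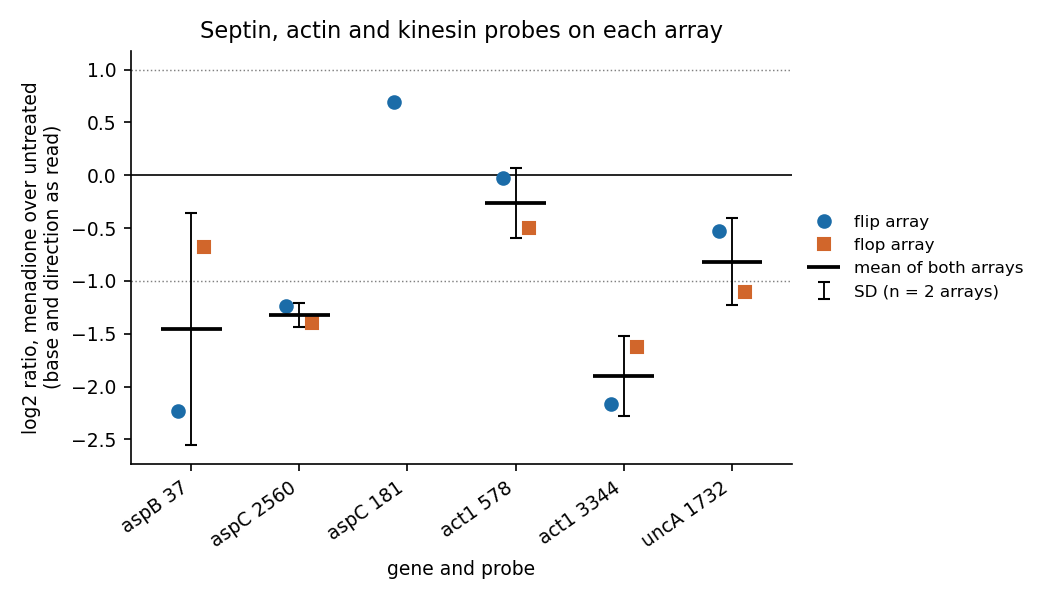
Log2 ratio (vertical axis) of each probe of aspB, aspC, act1 and uncA on the flip array (circles) and the flop array (squares), with the mean of both (bars) and its SD over 2 arrays; dotted lines mark 2-fold. The 5 probes with both values lie below 0 on both arrays, aspB spans -2.23 to -0.68, and the aspC probe 181, on the flip array alone, is at 0.69.

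The aspB product is a core septin that is present in septin filaments at septa and at emerging branches and conidiophore layers. Its single probe, 37, had a flip ratio of -2.23 and a flop ratio of -0.68. Both arrays put it below 0, but the flip value corresponded to a 4.69-fold lower level and the flop value to a 1.60-fold lower one. Within each array, 2.56% of flip values and 19.6% of flop values lay lower. The mean was -1.46 ± 1.10 (SD, n = 2), with a 95% interval of the limma fit from -2.97 to 0.06, and it did not pass (limma adjusted p = 0.116, unadjusted p = 0.0548). The gap between the arrays was larger than for 97.1% of the 2265 probes. Of the 301 probes whose mean was at least as far from 0 as that of aspB, 84.4% passed.

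The aspC product is another core septin, which forms hetero-oligomers with AspB. Probe 2560 had a flip ratio of -1.24 and a flop ratio of -1.40. The arrays nearly coincided, and 29.9% of probes had a smaller SD. The mean was -1.32 ± 0.11 (SD, n = 2), a 2.50-fold lower level, with a 95% interval from -1.77 to -0.87 (limma adjusted p = 0.0351). This adjusted p was also the smallest that any of the 2265 probes reached, but many probes shared it, act1 3344 among them.

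The other aspC probe, 181, was at 0.69 on the flip array and empty on the flop array. On the flip array the 2 aspC probes thus had opposite signs and lay 1.93 apart, a 3.81-fold difference. A probe with a flip value and an empty flop cell was common: 784 of 3049 probes with a flip value (25.7%). The flip values of such probes spread like those of probes with both values, with SDs of 0.983 and 0.956, and 23.3% and 23.2% of them were at least 2-fold from 0. Opposite signs were also common among probes of 1 gene. Over 659 pairs with flip values from 434 genes, 46.7% had opposite signs, the median absolute difference was 0.75, and 14.0% differed by at least as much as the aspC pair. With both aspC probes averaged on the flip array, the value there was -0.28 instead of -1.24. A fit of genes that kept probes with 1 value put aspC at -0.84, which did not pass (limma adjusted p = 0.212).

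**Figure D2:**
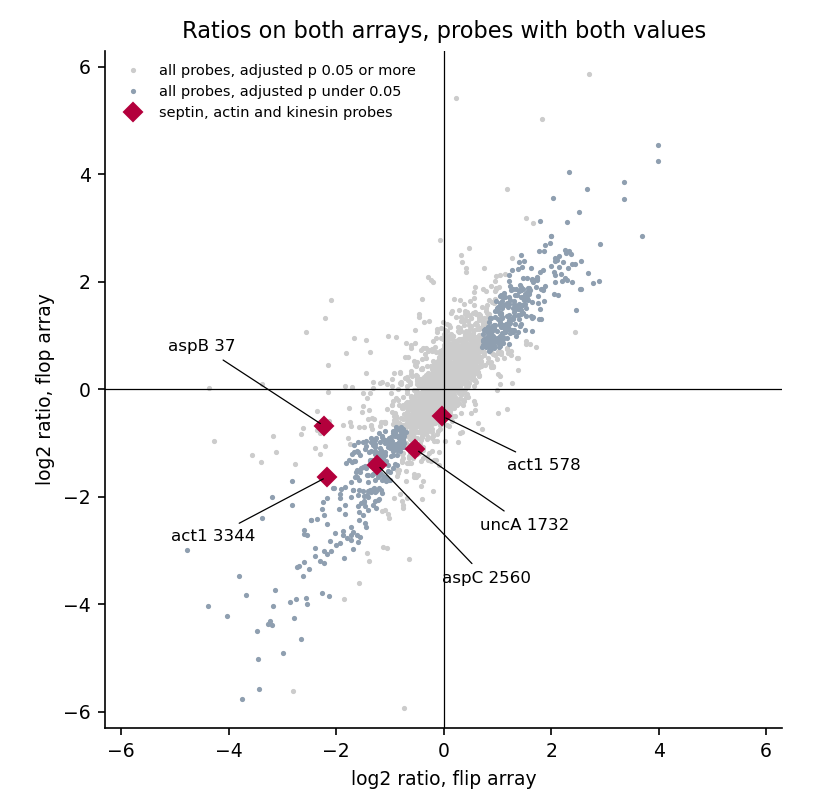
Log2 ratio on the flip array (horizontal axis) against the flop array (vertical axis) for the 2265 probes with both values; darker points passed an adjusted p of 0.05, and diamonds are the 5 septin, actin and kinesin probes. The diamonds of aspC 2560 and act1 3344 lie among the probes that passed, and aspB 37 lies off the main cloud because its flip value is lower than its flop value.

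Actin filaments form the cables and patches of the hyphal tip, and the actin gene is often used as a reference transcript. Probe 578 of act1 had a flip ratio of -0.03 and a flop ratio of -0.50. Probe 3344 was at -2.17 (flip) and -1.63 (flop). Probe 578 was thus near 0 on the flip array and slightly below it on the flop array, whereas probe 3344 was far below 0 on both, and the 2 probes did not overlap. The mean of probe 3344 was -1.90 ± 0.38 (SD, n = 2), a 3.73-fold lower level with a 95% interval from -2.56 to -1.24 (limma adjusted p = 0.0351). That of probe 578 was -0.27 ± 0.33, with an interval from -0.88 to 0.35 (limma adjusted p = 0.352). In the direction assumed, 4.15% of all probes had a lower mean than probe 3344, against 34.1% for probe 578. With the sign of the flop column turned, the means were -0.27 and 0.24, and the shares 16.2% and 88.7%.

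Probe 578 lay above probe 3344 by 2.14 on the flip array and by 1.13 on the flop array. The mean of this within-array difference was 1.64 ± 0.71 (SD, n = 2), a 3.11-fold difference that does not depend on the centring of the arrays. Fitted beside every other pair of probes of 1 gene (388 pairs from 285 genes), it had an interval from 0.44 to 2.83 and an unadjusted p of 0.0226, and it did not pass after adjustment (limma adjusted p = 0.0756). No pair passed 0.05 in this limma fit (0% called), although 166 pairs had an unadjusted p under 0.05. With the arrays scaled to a common spread, and likewise with robust moderation, 80 pairs (20.6%) passed by limma, and the act1 pair was not among them in either fit. The act1 difference was larger than 78.6% of the pairs and lay above their median of 0.80.

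**Figure D3:**
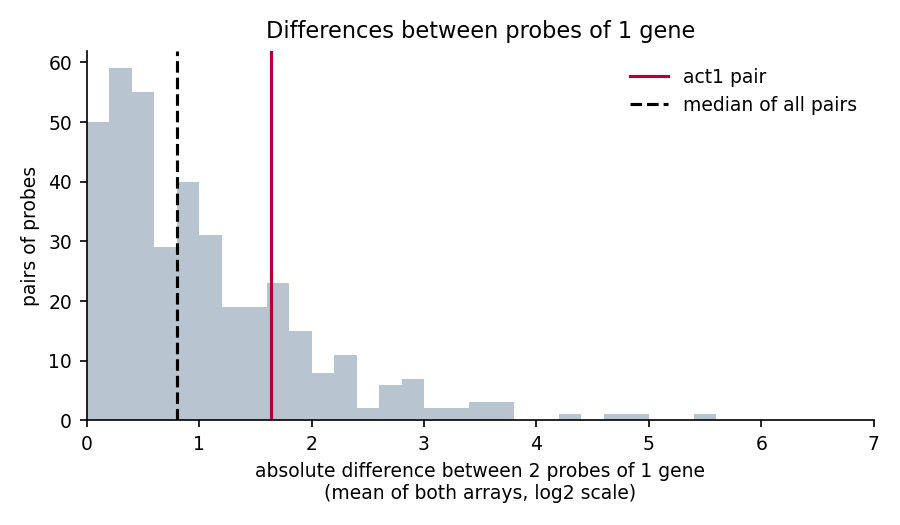
Number of pairs of probes of 1 gene (vertical axis) by the absolute difference of their mean log2 ratios over both arrays (horizontal axis), for 388 pairs from 285 genes. The solid line marks the act1 pair at 1.64 and the dashed line the median of 0.80, so the act1 pair lies in the upper part of a wide distribution.

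Averaging the 2 act1 probes gave -1.10 for flip and -1.07 for flop. This gene value was -1.08 ± 0.02 (SD, n = 2), a 2.12-fold lower level, and it passed in the fit of 1455 gene means (limma adjusted p = 0.0433), in which 19.0% of genes passed, 9.48% as lower. The same mean did not pass when probes with a value on 1 array were kept in the fit (limma adjusted p = 0.0695). The small SD, below that of all but 8.11% of genes, came from opposite deviations: from flip to flop, probe 578 moved by -0.47 and probe 3344 by 0.54. The error of the gene mean therefore leaves out the difference between its probes, and neither probe had a value between -1.63 and -0.50. With probe 578 alone act1 did not pass (adjusted p = 0.343), and with probe 3344 alone it did (adjusted p = 0.0430), both by limma over the same genes. In this gene fit aspC also passed (adjusted p = 0.0430), whereas aspB (0.132) and uncA (0.0947) did not.

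UncA is a kinesin of the family that transports endosomes and other vesicles, and in this fungus it runs on a subset of microtubules. Its single probe, 1732, had a flip ratio of -0.53 and a flop ratio of -1.11. Both were below 0, and the flop value alone exceeded 2-fold. The mean was -0.82 ± 0.41 (SD, n = 2), a 1.77-fold lower level with a 95% interval from -1.51 to -0.13, and it did not pass over all probes (limma adjusted p = 0.0863, unadjusted p = 0.0327). With both arrays scaled to a common spread it did (limma adjusted p = 0.0324). That setting also raised the count over all 2265 probes from 557 to 878. Of the 746 probes at least as far from 0 as uncA, 71.2% passed.

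Ordered by their means in the direction assumed, the probes ran from act1 3344 (-1.90) through aspB (-1.46), aspC 2560 (-1.32) and uncA (-0.82) to act1 578 (-0.27). Turning the sign of the flop column brings most means towards 0. The order was then aspB (-0.78), act1 3344 (-0.27), aspC 2560 (0.08), act1 578 (0.24) and uncA (0.29). As deposited, within an array, 7 of the 10 pairs among these 5 probes kept the same order on both arrays. The 3 that changed order all involved aspB, for which the difference from aspC was -0.99 in the flip column and 0.72 in the flop column. The order of aspB among the others is therefore not settled, and its difference from aspC, -0.14 ± 1.21 on average (SD, n = 2), was smaller than its spread.

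Because act1 can serve as a reference, the septins and uncA were also set against each act1 probe on the same array. Relative to probe 578, aspC was at -1.21 (flip) and -0.90 (flop), and relative to probe 3344 at 0.93 and 0.23. The sign of aspC relative to actin thus depended on the actin probe. The kinesin gene uncA was at -0.50 and -0.61 relative to probe 578 and at 1.64 and 0.52 relative to probe 3344, which shows the same change of sign. For aspB, the values were -2.20 and -0.18 relative to probe 578, and -0.06 and 0.95 relative to probe 3344. The median of all 2265 probes was 0.30 relative to probe 578 and 1.94 relative to probe 3344, and 92.5% of probes lay above probe 3344 on both arrays. These differences were given no test, and the choice to set genes against act1 was made after the values had been seen.

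**Figure D4:**
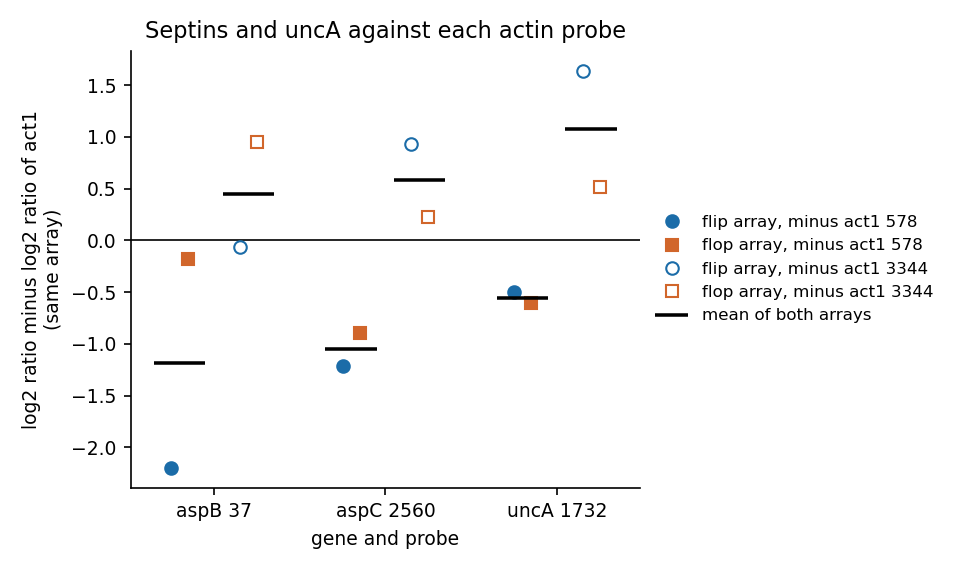
Difference between the log2 ratio of aspB, aspC or uncA and that of an act1 probe on the same array (vertical axis), with act1 probe 578 (filled) or 3344 (open) as the reference, on the flip array (circles) and the flop array (squares); bars are means of both arrays. All 6 points against probe 578 lie below 0, and 5 of the 6 points against probe 3344 lie above it.

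Other cytoskeleton genes were taken from a list of 104 symbols for septins, actin and its binding proteins, polarity and septation, myosins, kinesins, dynein and nuclear movement, and tubulins. Besides the 4 genes above, 10 of them were on the array under a symbol, with 13 probes: 7 probes with both values, 5 with a flip value alone and 1 empty on both arrays (apsA, whose product acts in nuclear positioning). No tubulin, myosin, further septin or further kinesin of the list was among them, and genes known by a locus tag alone are not covered. The listed symbol crnA is that of a nitrate transporter gene in this species and was left out.

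An unadjusted limma p under 0.05 was reached by 3 of the 7 probes with both values, and by 1035 of all 2265 probes. Of the 7, 1 passed over all probes, as higher with menadione, and 0 passed as lower (limma adjusted p under 0.05). Over all probes 12.2% passed as higher and 12.4% as lower. The one that passed was sac6, the gene of the actin-bundling protein fimbrin. Its ratios were 0.75 (flip) and 0.80 (flop), with a mean of 0.78 ± 0.04 (SD, n = 2), a 1.71-fold higher level (limma adjusted p = 0.0465). In the fit of gene means it was just outside the threshold (limma adjusted p = 0.0505). It thus had the opposite sign to both act1 probes on both arrays, although act1 578 was near 0 on the flip array (-0.03) and did not pass. The median of the 7 means was -0.37, beside 0.04 over all probes, and 5 of the 7 were below 0 on both arrays. Of the 7, 0 reached 2-fold on both arrays with the same sign, as 18.2% of all probes did. The gene pfy1, which in budding yeast encodes the actin-monomer-binding protein profilin, was at 0.21 on the flip array alone.

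Among the genes of polarity and septation, rho1 encodes a small GTPase that controls the actin cytoskeleton and cell wall synthesis. Its flip ratio was -0.68 and its flop ratio -2.03. Its mean of -1.36 ± 0.95 (SD, n = 2) lay close to those of the septins but did not pass (limma adjusted p = 0.107), and its arrays differed about as widely as those of aspB, in the opposite order. The gene bud4, whose yeast product is an anillin-like protein that works with septins at the bud neck, had 3 probes. In flip and flop, probe 195 was at 0.27 and 1.15, probe 1661 at -0.25 and -0.10, and probe 1755 at -0.70 and -0.25. As with act1, the probes of bud4 gave unlike values: probe 195 was above 0 and the others below 0 on both arrays. Their differences did not pass in the fit of pairs (limma adjusted p from 0.0704 to 0.389). None of the 3 probes passed over all probes (limma adjusted p from 0.154 to 0.394). Their average was 0.02 ± 0.35, an SD over the 2 arrays that leaves out the spread between the probes.

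Among the genes of dynein and nuclear movement, nudF encodes a regulator of dynein related to human LIS1. Its ratios were -0.45 (flip) and -0.62 (flop), with a mean of -0.54 ± 0.12 (SD, n = 2) that did not pass (limma adjusted p = 0.0881). The probe 1665 of apsB, whose product is a component of microtubule-organising centres, was at -0.15 and -0.58, and its other probe, 32, was at 0.20 on the flip array alone. Dynein genes had flip values only. The dynein heavy chain gene nudA was at -1.24, the dynein light chain gene nudG at 0.04, and nudC, which also acts in nuclear migration, at 0.52. Of these, nudA alone exceeded 2-fold on that array, as did 23.2% of all 3049 probes with a flip value.

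**Figure D5:**
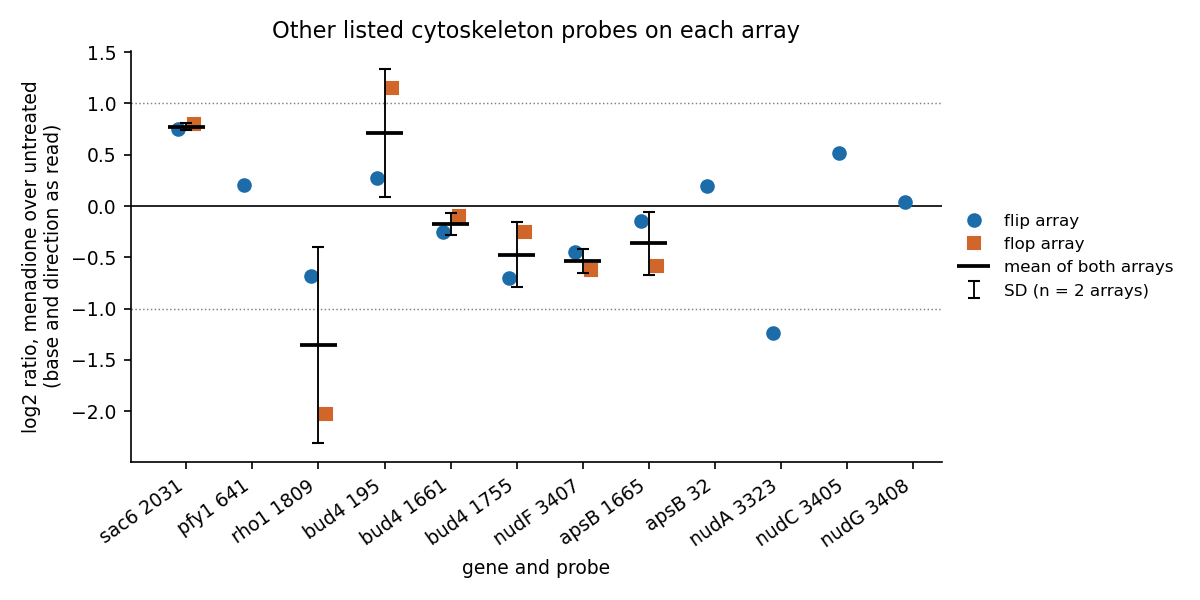
Log2 ratio (vertical axis) of the other listed cytoskeleton probes on the flip array (circles) and the flop array (squares), with means (bars) and SDs over 2 arrays where both values exist; dotted lines mark 2-fold. The sac6 values coincide near 0.78, rho1 spans -0.68 to -2.03, and the 3 bud4 probes lie on both sides of 0.

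The genes nearest to each probe were taken among 275 probes with a symbol and both values, by the Euclidean distance over the 2 arrays, which is a likeness in 2 values only. Nearest to aspC 2560 were a probe of S10a and the hacA probe 551, at distances of 0.135 and 0.180. Nearest to uncA were kapA (0.146) and agm1 (0.165), and nearest to act1 578 were aspf34 (0.0141) and bipA (0.05). The strongly lower probes had more distant neighbours. For act1 3344 they were hacA 529 (0.452) and car2 (0.506), and for aspB mep20 2689 (0.382) and hacA 529 (0.526). A near probe does not stand for its gene. On flip and flop, hacA 529 differed from hacA 2137 by -2.66 and -1.92, and hacA 551 by -1.49 and -1.97. Among other mep20 probes, 694 was at -1.05 and -2.96, and 761 at -0.60 and -0.14. The 2 act1 probes shared no nearest gene.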

How the data were processed

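Per the series' design text, the authors scanned double-printed cDNA arrays with a GenePix 4000B scanner, took ratios with GenePix Pro 3.0 and normalized each block by LOESS in SAS for Windows (version 8). The deposited columns hold 1 value per probe and array, titled a summary of normalized data. How spots were combined, why cells are empty and whether background was corrected is stated in none of the sources used here. The deposited values were taken as log2 ratios and used without further scaling.

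The test was that of limma 3.58.1 (R 4.3.3, functions lmFit and eBayes) for a ratio other than 0, over 2265 probes, over 1455 gene means (probes with both values averaged) and over 388 within-gene probe differences, adjusted by Benjamini-Hochberg with 0.05 as the threshold. The fit was checked on data simulated from its own variance model. That check cannot show whether its assumptions hold for these 2 arrays. Intervals are 95% intervals of the moderated fit, not adjusted for the number of probes.

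Gene symbols came from the platform annotation, which names 2779 probes, and were checked by gene ID against the RefSeq table of assembly ASM1142v1; 0 symbols changed. No coordinates are given, since the build behind the clones is not stated. Named genes are all probes of the 4 genes, the other listed cytoskeleton genes on the array, and the 2 nearest symbols to each probe. The symbol eb1 is named as an example from outside the list. The members and lists were chosen with earlier results of these data known. Alternatives covered centring, scaling, moderation, probes with 1 value, probe summaries, the sign of the flop array and the base of the logarithm.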

Additional observations from a re-analysis of the deposited data

How the results depend on the processing

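Of the alternatives, those that set act1 from 1 probe alone, set genes against act1, or read the count by size as natural logarithms or on 1 array were chosen after seeing the data. The 557 probes past the threshold became 878 with the arrays scaled to a common spread, 305 with 1-array probes kept, 951 at an adjusted p under 0.10 and 0 at 0.01 by limma, where 1035 had an unadjusted p under 0.05. With the flop sign turned, 0 probes and 0 of the 4 genes passed by limma (2 probes and 0 of the genes described at an unadjusted p under 0.05). The columns had the same sign for 82.2% of probes, so turning 1 brings most means towards 0, whichever the gene. In that setting aspC 2560 was at 0.08, uncA at 0.29, act1 578 at 0.24, act1 3344 at -0.27 (from -1.90), aspB at -0.78 (from -1.46) and the act1 gene mean at -0.02 (from -1.08), with an adjusted p of 1 each by limma. The unmoderated statistic gave 0 probes and 0 genes (390 probes unadjusted, among them 1 of the 5, aspC 2560, and 2 of the 4 genes, aspC and act1). Of the 4 genes, 2 passed as reported, 3 with the arrays scaled, 0 with 1-array probes kept and 1 with act1 from probe 578 alone. Over all genes 19.0% passed as reported, and the shares in the other settings are not given here. The count over all probes likewise rose with scaling and fell with 1-array probes kept. The gene added by scaling was uncA (limma adjusted p = 0.0420). Of the 5 probes, the 2 that reached 2-fold in both columns became 1 at 3-fold (act1 3344) and 3 on either array alone. The third was aspB on the flip array and uncA on the flop array. Over all 2265 probes, 157 reached 3-fold on both arrays. On the flip array alone 23.2% of probes with a value reached 2-fold, and the share on the flop array is not given here. The 0 pairs of probes past the threshold became 80 with scaling and 80 with robust moderation by limma, and act1 was in neither (adjusted p = 0.0848 and 0.0611). Without 1 array the act1 difference ranged from 1.13 to 2.14. The causes were not tested. Centring, robust moderation and natural logarithms changed no call of the 5 probes or 4 genes. No test is possible on 1 array. Each ratio already pairs both RNAs on 1 array, and the 2 arrays form 1 group, so no further pairing of samples was possible.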
